A study of Arabidopsis thaliana with 2 samples.

Results

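The genes described here encode the activators and inhibitors of the anaphase-promoting complex (APC/C) of Arabidopsis, 8 of the 27444 protein-coding genes on the nuclear chromosomes. They were taken by locus code: the activators CDC20.1 (AT4G33270), CDC20.2 (AT4G33260), CCS52A1 (AT4G22910), CCS52A2 (AT4G11920) and CCS52B (AT5G13840), and the inhibitors UVI4 (AT2G42260), GIG1 (AT3G57860, UVI4-LIKE in the gene table) and SAMBA (AT1G32310). For each gene, the deposited peaks of MYB3R3-GFP that overlapped the gene or the 1000 bp to either side by at least 1 bp were taken. This gave 6 peaks of the 2931 in the list, and 6 of the 8 genes had at least 1.

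The study asked which genes the transcription factor MYB3R3 binds. Whole Arabidopsis seedlings of ecotype Col-0 expressed a MYB3R3-GFP fusion (GFP is green fluorescent protein) and were taken 9 days after germination. They grew untreated in liquid medium that held 2% sucrose, at 22 °C and under continuous light. DNA bound by the fusion, recovered with a GFP antibody, gave 1 ChIP library; 1 input library of the same line was not analysed here. The labels do not state the promoter of the fusion, the state of the endogenous MYB3R3 gene or how many plants were pooled. Whole seedlings mix dividing and non-dividing cells, so strong binding in few cells and weak binding in many cannot be told apart.

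The APC/C is a ubiquitin ligase that marks mitotic cyclins and securin for destruction, which lets chromosomes separate and cells leave mitosis. It works through activator proteins that bring in its substrates: CDC20 proteins act in mitosis, and the CCS52 proteins, the plant relatives of animal CDH1, act as cells leave mitosis and enter the endocycle, in which DNA is replicated without division. UVI4 and GIG1 (also called OSD1) are related plant proteins that hold the APC/C back, in the endocycle and in the meiotic divisions, and SAMBA is a plant-specific protein described as a negative regulator of the complex. MYB3R proteins bind genes of the G2 and M phases of the cell cycle, some as activators and some, MYB3R3 among them, as repressors.

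Both peaks at inhibitor genes scored above all 4 peaks at activator genes. The score is the authors' own value of each peak; its formula is unknown here, so it served only to rank peaks within this list. UVI4 and GIG1 ranked 38 and 44 among the 2931 peaks, CDC20.1 ranked 157, CDC20.2 and CCS52B ranked 444 and 450, and CCS52A2 ranked 1151. CCS52A1 and SAMBA had no peak. With 1 ChIP library there is no replicate error, so these differences were not tested, and the genes do not serve as replicates of each other.

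By count, 4 of the 5 activators and 2 of the 3 inhibitors had a peak. Of all protein-coding genes, 3828 (13.9%) had a peak under the same rule. The 8 members were chosen with earlier results of these data known, so setting their counts beside such shares is a description only. All 6 members with a peak were above the median peak score of 17.4. Thus 6 of the 8 members had a peak at or above that score, against 7.59% of all genes. Of the 3828 genes with a peak, 2082 reached it. Peaks that overlapped the gene itself were found at the same 6 members, against 8.39% of all genes, and limits of 500 and 2000 bp also gave 6 members, against 11.9% and 17.8% of all genes. Of the 6 peaks, 4 lay within 1000 bp of 2 protein-coding genes. The other 2, those of GIG1 and CCS52A2, had 1 such gene, and counting peaks of that kind alone, 2 members and 4.22% of all genes had a peak. At the third quartile of the scores, 28.5, 5 of the 8 members (all 6 except CCS52A2) had a peak, against 4.14% of all genes. The median over genes of the highest score was 70.2 for the 6 members with a peak, 45.7 for the 4 activators among them and 195.3 for the 2 inhibitors, against 18.5 for all 3828 genes with a peak.

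**Figure D1:**
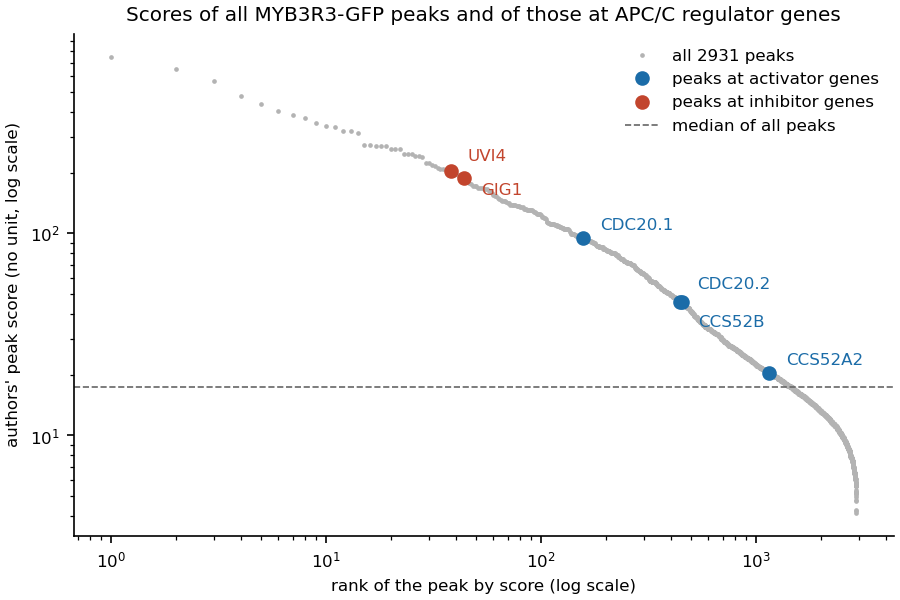
Peak score (vertical axis, no unit, log scale) against rank by score (horizontal axis, log scale) for all 2931 peaks in grey, with the peaks at activator genes in blue and at inhibitor genes in red. The peaks at UVI4 and GIG1 stand at ranks 38 and 44, those at the activators between ranks 157 and 1151, and all lie above the dashed median of 17.4.

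UVI4 keeps cells from entering the endocycle early. Its peak had a score of 203.01, which 1.30% of all peaks reached, and lay on chromosome 2 from 17603447 to 17604014 (TAIR10). It was 568 bp wide, with 259 bp inside the gene and 309 bp beyond its higher-coordinate end, and its midpoint was 25.5 bp outside that end. The only other protein-coding gene within 1000 bp was AT2G42270, which the peak did not overlap: it lay 62 bp past the edge of the peak, and its nearer end was 345.5 bp from the midpoint. Among the 3828 genes with a peak, UVI4 ranked 58 by highest score.

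GIG1, the relative of UVI4, is known for its part in the passage between the meiotic divisions and in keeping mitotic cells from duplicating their genome. Its peak scored 187.68, reached by 44 of the 2931 peaks, on chromosome 3 from 21425925 to 21426493. It was 569 bp wide, 1 bp wider than that of UVI4, with 209 bp inside the gene and 360 bp beyond its lower-coordinate end, and its midpoint was 76 bp outside. GIG1 was the only protein-coding gene that it touched, although it also overlapped a transcribed pseudogene, AT3G57854. GIG1 ranked 66 among genes with a peak. Both related inhibitor genes thus carried a peak of nearly the same width and score across 1 gene end. A further peak near GIG1, with a score of 12.85, lay 1817 bp away, outside the 1000 bp limit; it was nearest to the end of SCE1, the gene of a SUMO-conjugating enzyme.

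SAMBA, the third inhibitor gene, had no peak inside it or within 1000 bp. The nearest peak, with a score of 23.9, lay 32175 bp from the gene, on chromosome 1 from 11621087 to 11621325, nearest to an end of RCD1. Within 50000 bp of SAMBA there were 2 peaks, against a median of 3 over all protein-coding genes (quartiles 1 and 4). The list holds only peaks past the authors' threshold, so weaker binding at SAMBA was not detectable.

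CDC20.1 and CDC20.2, the activators of the APC/C in mitosis, are neighbours on chromosome 4, with 619 bp between them. Each had a peak over its own higher-coordinate end. The peak at CDC20.1 scored 94.61, reached by 5.36% of all peaks, and ran from 16046669 to 16047054. It was 386 bp wide, with 269 bp inside the gene, and its midpoint was 75.5 bp inside that end. It also lay 80 bp from AT4G33280, whose nearer end was 272.5 bp from the midpoint.

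The peak at CDC20.2 scored 45.83, reached by 15.1% of all peaks, and ran from 16043295 to 16043604. Of its 310 bp, 255 bp lay inside CDC20.2, and its midpoint was 99.5 bp inside the gene end. The same peak came to within 565 bp of CDC20.1 and therefore counted for that gene too, which made CDC20.1 the only member with 2 peaks; 1.57% of all protein-coding genes had 2 or more. With 500 bp in place of 1000 bp to either side, CDC20.1 kept its own peak alone. By score, CDC20.1 ranked 250 and CDC20.2 ranked 721 among genes with a peak.

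**Figure D2:**
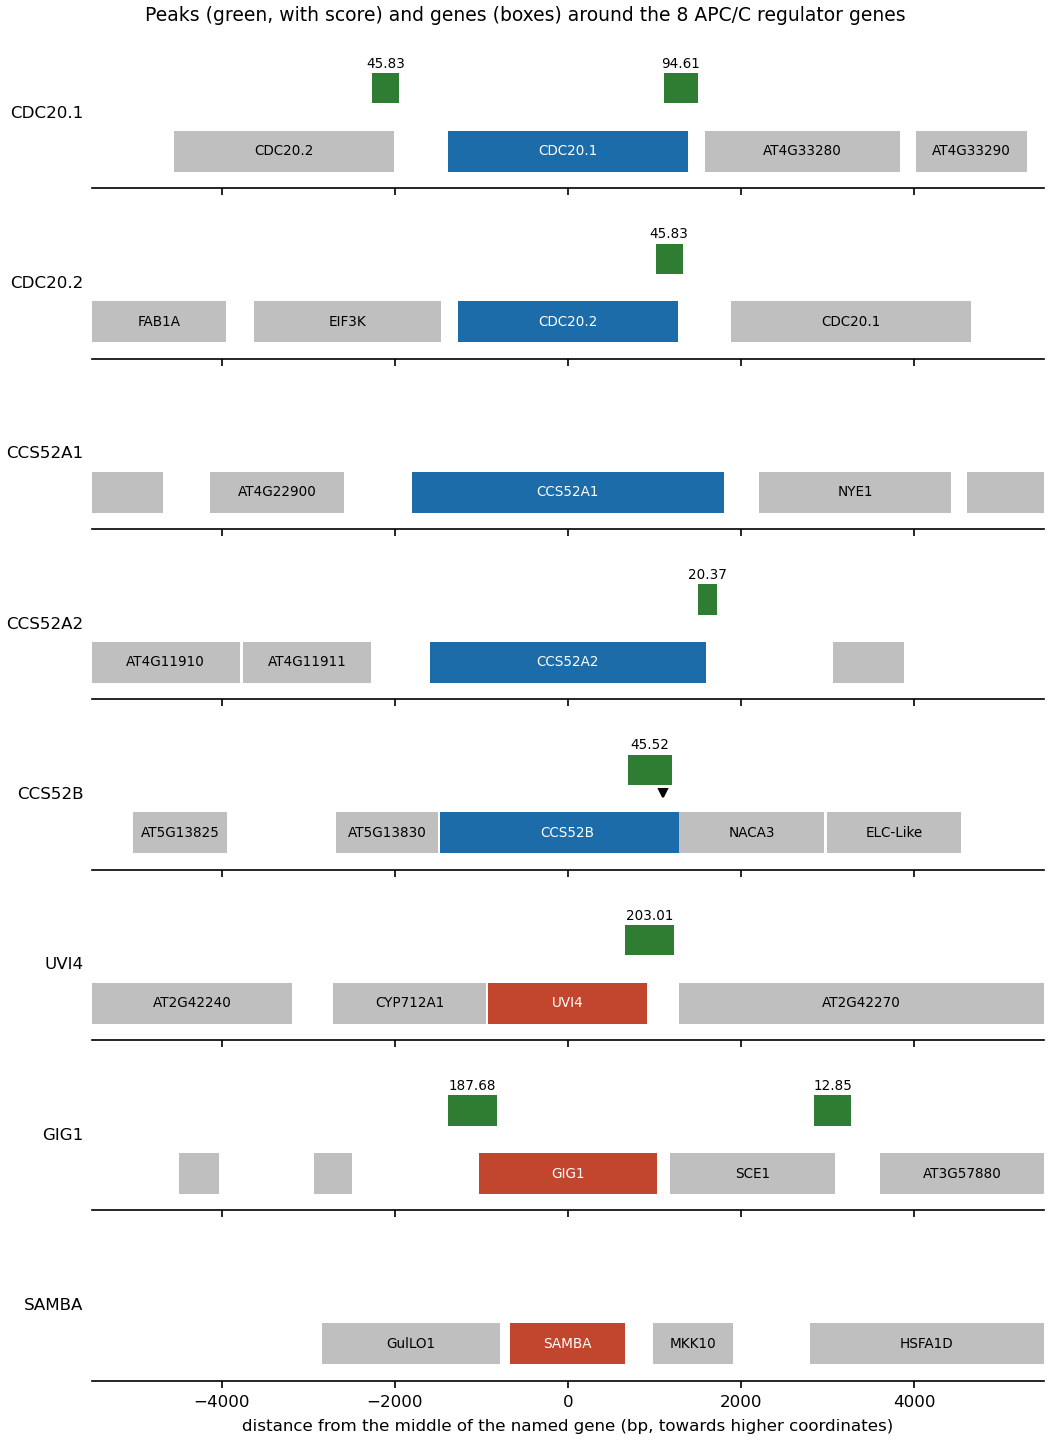
Genes (boxes, the named gene in blue for activators and red for inhibitors, other protein-coding genes in grey) and MYB3R3-GFP peaks (green, labelled with the authors' score) around each of the 8 genes, by distance in bp from the middle of the named gene towards higher coordinates; a black triangle marks a tRNA gene. Peaks sit across gene ends at CDC20.1, CDC20.2, CCS52A2, UVI4 and GIG1, the peak of CCS52B lies wholly inside the gene over a tRNA gene, and CCS52A1 and SAMBA have none in view.

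The 3 CCS52 genes differed from each other. CCS52A2, known for keeping the root meristem in order, had a peak with a score of 20.37 on chromosome 4 from 7163342 to 7163554. That score was reached by 39.4% of all peaks, and at 213 bp it was the narrowest of the 6 peaks. Its midpoint was 21 bp outside the higher-coordinate end, closer to a gene end than at any other member, and CCS52A2 was the only protein-coding gene that it touched. CCS52A1, which is known for promoting the endocycle in leaves and roots, had no peak inside it or within 1000 bp. The nearest peak, with a score of 95.8, lay 14895 bp from it, and there were 4 peaks within 50000 bp.

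CCS52B, whose transcripts are known to peak from G2 to M phase, unlike those of the CCS52A genes, had a peak with a score of 45.52 on chromosome 5 from 4470685 to 4471190. Unlike the other 5 peaks, it crossed no end of its gene: all of its 506 bp lay inside the gene, and its midpoint was 528.5 bp from the nearer gene end. It overlapped a tRNA gene (AT5G13845), which lies within CCS52B, and a long non-coding RNA gene (AT5G02105). The nearest end of a protein-coding gene was that of NACA3, 339.5 bp from the midpoint. NACA3 encodes a relative of the alpha subunit of the nascent polypeptide-associated complex. Of 625 nuclear tRNA genes, 101 (16.2%) were overlapped by a peak, and 96 of the 2931 peaks (3.28%) overlapped a tRNA gene. The part of tRNA genes in the CCS52B result was not tested. The CCS52B score was reached by 7 of the 96 peaks over tRNA genes, this one included, and by 15.4% of all peaks. The median score was 15.8 for peaks over tRNA genes and 17.4 for all peaks. Without peaks over tRNA genes, 5 of the 8 members had a peak, against 13.4% of all genes. With each peak given only to the gene with the nearest end, CCS52B also lost its peak, and 5 members against 9.69% of all genes had one.

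For 5 of the 6 peaks, the midpoint was within 100 bp of the nearest protein-coding gene end, which was in each case an end of the member itself; 37.2% of all 2931 peaks were that close, and the median distance was 152 bp. All 5 overlapped the member, with 86 to 269 bp inside it. Strand was not used here, so whether these are 5′ or 3′ ends is not stated. Width varied from 213 to 569 bp, and 5 of the 6 peaks were wider than the median of 275 bp. Width and score rose together over the 2931 peaks (Spearman's rho = 0.57, all from 1 library). The peaks of UVI4 and GIG1 were among the 4.44% and 4.40% widest, and that of CCS52B, with a score near that of CDC20.2, was among the 7.44% widest.

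**Figure D3:**
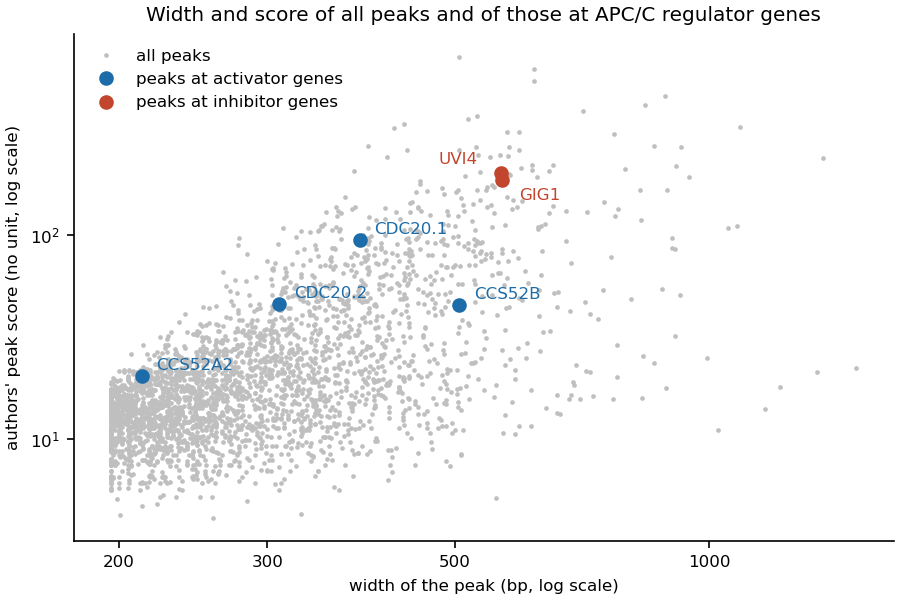
Peak width (horizontal axis, bp, log scale) and authors' score (vertical axis, no unit, log scale) of all peaks in grey, with the peaks at activator genes in blue and at inhibitor genes in red. UVI4 and GIG1 almost coincide at 568 and 569 bp, while CCS52B and CDC20.2 have nearly equal scores, 45.52 and 45.83, at widths of 506 and 310 bp.

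Other CDC20 genes and further groups of genes around the APC/C were set beside the 8 members, under the same rule and against the same 13.9% of all genes. These groups, too, were chosen with earlier results of these data known. CDC20.3, CDC20.4 and CDC20.5, the other CDC20 genes, had no peak in any of the 3 cases. Of 12 loci listed as core subunits of the complex, 4 had a peak, with highest scores from 4.29 to 31.4, a range that overlaps that of the members at CCS52A2 (20.37). The scores were 31.4 and 16.5 for the 2 peaks of AT1G06590, 19.9 for APC6, 15.7 for APC8 and 4.29 for CDC27A. The highest peak of AT1G06590 lay 518 bp from that gene, nearer to AT1G06620, and overlapped a tRNA gene. The peak that overlapped AT1G06590 itself was the one with a score of 16.5. The peak of APC8 lay 786 bp from APC8, nearer to DEL1, the gene of an atypical E2F protein. APC1, APC2, HBT, APC4, APC7, APC10, APC11 and APC13 had none.

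The genes of the E2 enzymes UBC19 and UBC20, which pass ubiquitin on to substrates, both had a peak across a gene end, with scores of 31.8 and 153.69. Of 8 loci listed for the spindle assembly checkpoint, which restrains CDC20 until chromosomes are attached, 7 had a peak, with scores of 97.1 for PPK1, 66.7 for AT2G20635, 48.7 for BUBR1, 36.3 for BUB3.2, 18.2 for MAD2, 12.3 for AT5G05510 and 7.52 for BUB3.1. MAD1 had none. The gene of separase (ESP), the protease that opens cohesin once securin is destroyed, had a score of 46.8, while PANS1 and PANS2, the securin genes, had no peak. Among the 36 loci of all these groups, UVI4 and GIG1 had the highest scores, followed by UBC20, PPK1 and CDC20.1. These are descriptions of 1 peak list, with no test between groups.

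**Figure D4:**
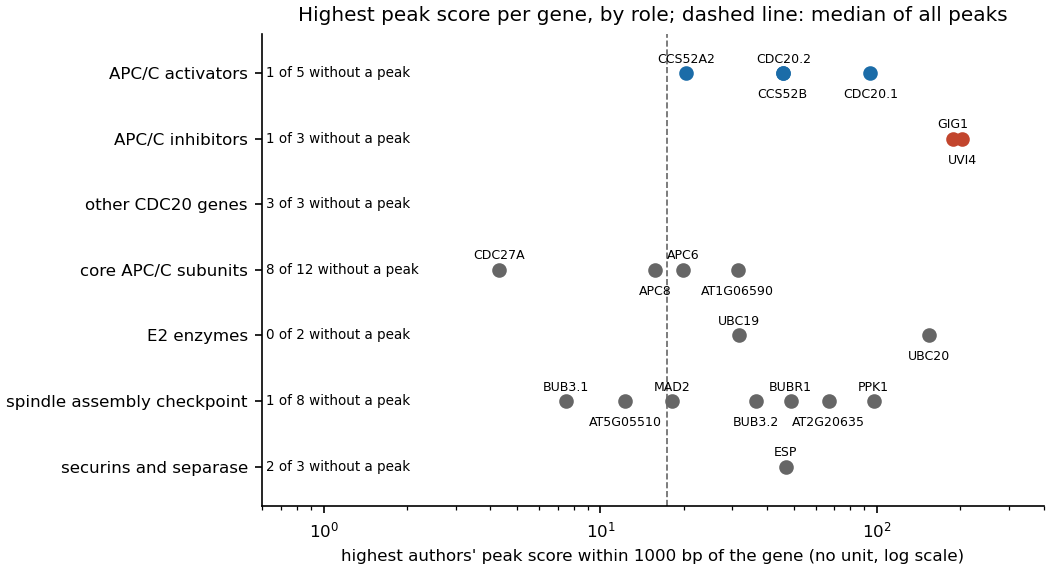
Highest authors' peak score within 1000 bp of each gene (horizontal axis, no unit, log scale) by role, with 1 point per gene that had a peak and the number of genes without a peak at the left. The inhibitors GIG1 and UVI4 lie furthest right at 187.68 and 203.01, the activators run from 20.37 to 94.61, and the core subunits from 4.29 to 31.4.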

How the data were processed

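Per the submitters' processing notes, the build was TAIR10, and MACS2 (version not listed), Bowtie 0.12.7 and SAMtools 0.1.18 were used, with no role or order stated. The authors deposited 2931 peaks, each with a score and with positions in base pairs. The sources used here do not give the score's formula, the calling threshold, the use of the input or the read depth. Starts were read as counting from 0, as in BED files, and are printed 1-based; the midpoint stood for the summit.

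Gene names and extents were those of RefSeq's TAIR10.1 table, which names another build than the peaks. Without a shift, 77.3% of peak midpoints lay within 500 bp of a gene end, the highest share among shifts of up to 5000 bp in steps of 100 bp, where shifts of at least 4000 bp gave a median of 40.7%. Gene coordinates are not printed. All 36 loci were found in the table, which calls CCS52A1 FZR2, CCS52B FZR3, APC1 EMB2771 and APC13 BNS; loci with no name in it go by their code. Strand and sequence were not used here, so the motif, protein and transcription start comparisons of the design were not run.

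The 8 members and the lists were chosen with earlier results of these data known. All members are named; other pathway genes are named where they have a peak, and those without a peak were named after their values were seen. Neighbours are named where they share a peak or their end is nearer to its midpoint. SCE1 and RCD1 are named as the genes with an end nearest to the described peaks outside the limit at GIG1 and SAMBA. Counts are set beside the share of all protein-coding genes under the same rule, without tests. The overlap code was tested on simulated peaks. The software was SciPy 1.17.1, NumPy 2.4.6, pandas 2.3.3 and matplotlib 3.10.9 under Python 3.11.15.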

Additional observations from a re-analysis of the deposited data

How the results depend on the processing

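Each count was recomputed under 10 other settings, 2 of them chosen after seeing the data (peaks that touch the window of 1 gene, and no peaks over tRNA genes). Of 40 recomputed counts, 33 stayed within 1.5 times. The number of members with a peak was 5 or 6 under every setting except peaks that touch the window of 1 gene, where 2 members (CCS52A2 and GIG1) remained, 1 activator and 1 inhibitor, against 1158 of all genes (4.22%). The number of all genes with a peak, 3828, was 2303 without a margin, 2082 with scores of at least 17.4 and 1136 with scores of at least 28.5; fewer peaks or smaller windows give these by construction. Under all 10, CCS52A1 and SAMBA lacked a peak. Most of these settings can only take peaks away from a gene, so they could not have given either gene one. The nearest peaks lay 14895 bp from CCS52A1 and 32175 bp from SAMBA, so the limit of 2000 bp could not have done so either. No paired analysis was possible because the series has a single ChIP library, so none could be left out either. Assignment to the nearest transcription start and the motif settings were not run, since strand and sequence were not used. The read depth is unknown, which limits what an absent peak means.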

Other observations

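The peak over the tRNA gene inside CCS52B led to a count over small RNA genes, chosen after its values were seen. Peaks covered 0.773% of the length of the 5 chromosomes. They overlapped 101 of 625 tRNA genes (16.2%) and 13 of 82 snRNA genes (15.9%), whose median lengths are 73 and 153 bp. Shares of length and of genes are unlike measures. A gene counted from 1 bp of overlap on, so its share also depends on gene length and peak width. Of the snoRNA and miRNA genes, with median lengths of 92 and 144.5 bp, 3 of 287 (1.05%) and 4 of 326 (1.23%) were overlapped. Of the longer lncRNA genes, with a median of 343 bp, 156 of 3480 (4.48%) were. Protein-coding genes, with a median length of 2078 bp, were overlapped in 8.39% of cases. Of the 96 peaks over tRNA genes, 95 also lay within 1000 bp of a protein-coding gene. Most other peaks did too: of all 2931, only 202 had no such gene within 1000 bp. Through peaks over tRNA genes alone, 141 protein-coding genes counted as having a peak, CCS52B among them. Peaks over tRNA genes had a median score of 15.8 (quartiles 13.3 and 21.2), and those over snRNA genes had a median of 16.9.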
